A study of Caenorhabditis elegans with 36 samples.

Results

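The spe, fer and gsp genes described here are the named sperm function genes of *Caenorhabditis elegans*. They were chosen by name: every gene whose name in the WBcel235 annotation begins with spe- or fer-, together with *gsp-3* (W09C3.6) and *gsp-4* (T03F1.5), matched by sequence name to the count files. This gave 32 of the 45904 gene names in those files, of which all but *fer-1*, *gsp-3* and *gsp-4* are spe genes, and each of the 32 had a value in every library. The libraries came from whole, synchronized adults of the wild-type strain N2 and of a strain that carries the *mut-16(pk710)* allele, which disrupts a scaffold protein of germline small RNA amplification. All of these libraries are recorded as from the first day of adulthood, at both temperatures and harvest times. Animals were raised for a single generation at 25°C, with harvest 48 h after plating, or at 20°C, with harvest 68 h after plating, so temperature and time to harvest cannot be told apart. The 4 groups were thus *mut-16* and wild-type, each at 25°C and at 20°C, with 3 libraries of poly(A)-selected mRNA and 3 of size-selected small RNA in each. The mutant was a single strain and each library pooled many animals. The libraries of a group are biological replicates by the study's methods, and p-values measure the spread between them.

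In *C. elegans* hermaphrodites, the first germ cells to differentiate in each gonad arm become sperm, and the germ line then switches to oocytes for the rest of adult life. Sperm-specific transcripts are made before and during meiosis, because transcription largely stops in maturing spermatids, and their products build the fibrous body-membranous organelles, set the timing of spermatid activation and act on the sperm surface at fertilization. Genes named spe or fer were found as mutants with defective sperm, while *gsp-3* and *gsp-4* encode closely related sperm phosphatases of the protein phosphatase 1 family. Small RNAs in the germ line include secondary small RNAs made on mRNA templates, whose amplification needs *mut-16* for many but not all target genes.

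The deposited values were estimated counts of reads per gene. The mRNA libraries totalled 15432009 to 34195602 reads and the small RNA libraries 4760502 to 19060841 reads, and levels are given as RPM, the reads scaled to the library total. The *mut-16* gene itself had 49.4, 40.6 and 42.3 RPM in *mut-16* at 25°C, against 127, 109 and 105 RPM in wild-type at 25°C, and 64.3, 51.7 and 40.8 RPM in *mut-16* at 20°C, against 127, 117 and 119 RPM in wild-type at 20°C. At both temperatures the 3 mutant libraries lay under all wild-type ones. Folds are log2 fold changes with their standard errors (±) from edgeR's quasi-likelihood test, fitted over all 12 libraries of an assay, with Benjamini-Hochberg adjustment over the 14623 genes tested for mRNA and the 16025 tested for small RNA. Genes past an adjusted p of 0.05 are called up- or down-regulated. Scaling by total counts in place of edgeR's TMM factors moved the all-gene median of mRNA log2 fold changes to 0.46 (TMM 0.15) for 25°C against 20°C in *mut-16*, to 0.37 (TMM 0.16) for mutants against wild-type at 25°C, and to 0.19 (TMM -0.10) for the difference in heat response, so calls of small size in these 3 comparisons are given under both.

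Most sperm function genes were rare transcripts in whole animals and were highest in *mut-16* at 25°C. Of the 32 genes, 27 had their highest mean mRNA level in *mut-16* at 25°C and 28 had their lowest in wild-type at 20°C. Per kilobase of exon, the median level over the 32 genes was 2.04 RPM in *mut-16* at 25°C, against 0.413 RPM in wild-type at 25°C, and 0.709 RPM in *mut-16* at 20°C, against 0.120 RPM in wild-type at 20°C. The same medians over all protein-coding genes were 3.44 RPM in *mut-16* at 25°C, against 1.66 RPM in wild-type at 25°C, and 1.67 RPM in *mut-16* at 20°C, against 1.19 RPM in wild-type at 20°C. They too were highest in *mut-16* at 25°C and lowest in wild-type at 20°C, so these extremes are not particular to the 32 genes. The share of all genes with their highest or lowest mean in these groups was not counted. Unheated wild-type had no count in any library for *spe-10*, *spe-19*, *spe-29* and *spe-38*, among others, and heated wild-type had none for *spe-29* alone. A few of the genes were abundant throughout: per kilobase, *spe-39* averaged 44.4 RPM in *mut-16* at 25°C, against 51.2 RPM in wild-type at 25°C, and 49.4 RPM in *mut-16* at 20°C, against 48.1 RPM in wild-type at 20°C, and *spe-48* averaged 34.3 RPM in *mut-16* at 25°C, against 36.5 RPM in wild-type at 25°C, and 32.7 RPM in *mut-16* at 20°C, against 36.4 RPM in wild-type at 20°C. These 2 genes, with *spe-44*, *spe-5* and *spe-15*, made up most of the summed mRNA level of the 32 genes, which was 297 ± 5.01 RPM in *mut-16* at 25°C, against 239 ± 5.06 RPM in wild-type at 25°C, and 245 ± 20.0 RPM in *mut-16* at 20°C, against 191 ± 7.94 RPM in wild-type at 20°C (SD, n = 3). Without those 5 genes the sums were 109 ± 3.76 RPM in *mut-16* at 25°C, against 32.8 ± 1.36 RPM in wild-type at 25°C, and 60.9 ± 4.28 RPM in *mut-16* at 20°C, against 12.8 ± 2.47 RPM in wild-type at 20°C. The samples were whole animals, so fewer sperm-forming cells and less RNA per such cell cannot be told apart.

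**Figure D1:**
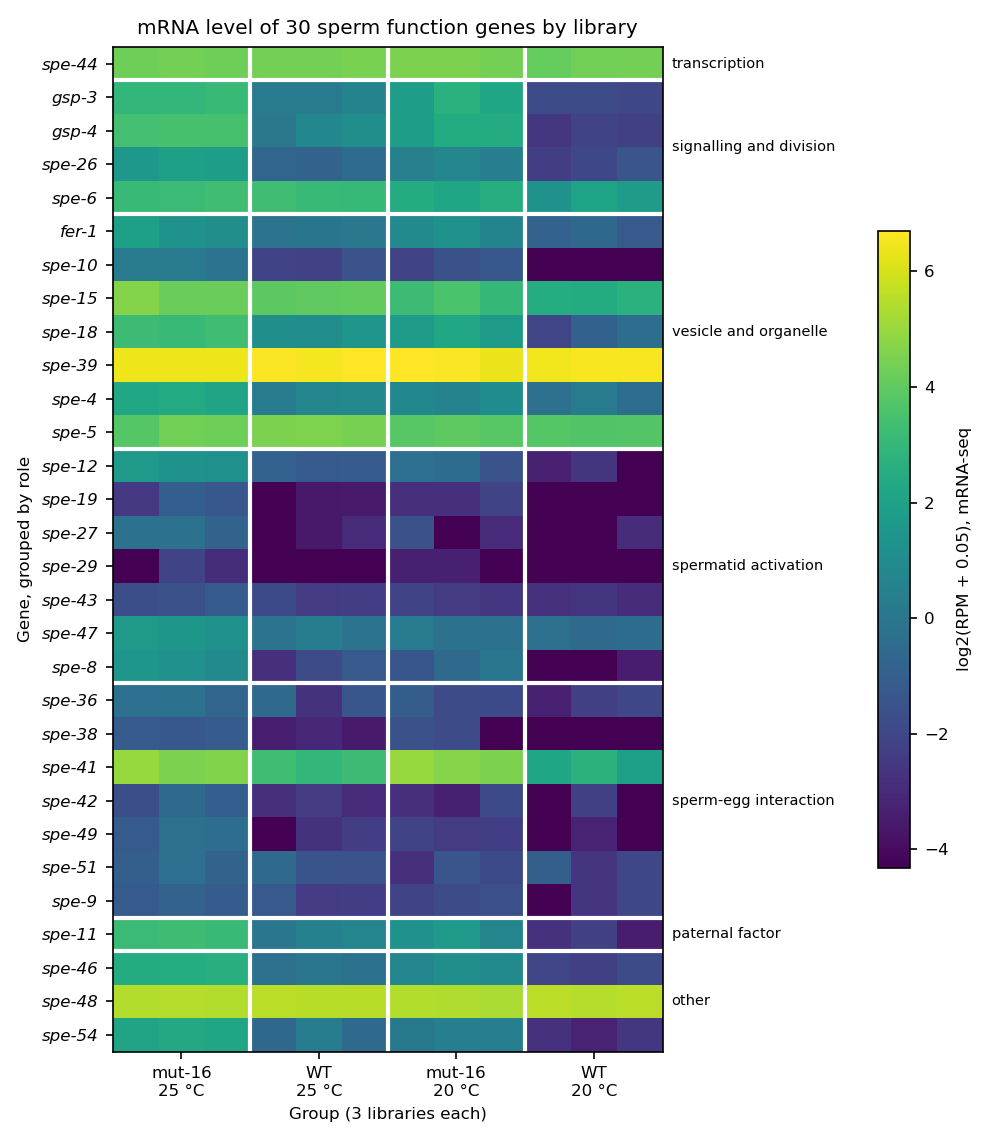
mRNA level of 30 of the 32 sperm function genes (vertical) in each of the 12 libraries (horizontal, in 4 groups, *mut-16* left of wild-type and 25°C left of 20°C), coloured by log2(RPM + 0.05) from dark (low) to yellow (high). Most genes are darkest in wild-type at 20°C and lightest in *mut-16* at 25°C, while *spe-39*, *spe-48*, *spe-44* and *spe-5* keep a similar colour in all 12 libraries.

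The genes were compared between *mut-16* mutants and wild-type animals at each temperature, between the temperatures in each genotype, and for a difference between genotypes in the response to heat. Of the 32 genes, 24 passed edgeR's filter on low counts in mRNA-seq. Among the 8 that did not were *spe-9*, *spe-19*, *spe-29*, *spe-38*, *spe-42*, *spe-43* and *spe-49*. In *mut-16* against wild-type at 20°C, 16 of the 24 were up-regulated and 0 were down-regulated, against 25.9% and 11.2% of all genes tested. The count of 0 came from edgeR, and was 0 by DESeq2 and 0 at an unadjusted p under 0.05. At 25°C, 16 of the 24 were up-regulated in *mut-16* and 4 (*spe-5*, *spe-39*, *spe-44* and *spe-48*) were down-regulated, against 41.1% and 32.6% of all genes. Heat up-regulated 16 and down-regulated 0 in wild-type, against 22.6% and 9.78% of all genes, with 0 down-regulated by DESeq2 and 0 at an unadjusted p under 0.05. Heat up-regulated 17 and down-regulated 3 (*spe-39*, *spe-44* and *spe-48*) in *mut-16*, against 40.2% and 32.3% of all genes. The log2 response to heat was lower in *mut-16* than in wild-type for 11 of the 24 and higher for 0, against 21.4% and 9.70% of all genes. That 0 also came from DESeq2, with 1 gene, *spe-47*, at an unadjusted p under 0.05.

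Median log2 fold changes of the 24 tested genes lay above those of all genes in each direct comparison. They were 2.31 for mutants against wild-type at 20°C (all genes 0.11), 1.61 at 25°C (all genes 0.16), 0.98 for heat in *mut-16* (all genes 0.15), 1.34 for heat in wild-type (all genes 0.09) and -0.77 for the difference in heat response (all genes -0.10). With genes at 0 in wild-type at 20°C, such as *spe-10*, set to the lower bounds that a count of 0 allows, the median was 1.96 for mutants against wild-type at 20°C and 1.23 for heat in wild-type. With a minimum of 10 counts in every library, which 9 of the 32 genes met, the medians were 0.42 at 20°C (all genes 0.0099), 0.0063 at 25°C (all genes 0.057), 0.17 for heat in *mut-16* (all genes 0.067), 0.73 for heat in wild-type (all genes 0.0073) and -0.36 for the difference (all genes 0.082). A gene that is high in one group alone can pass the filter through that group, so the same counts were made over all 32 genes without a filter. Then 19 of 32 were up-regulated in *mut-16* at 20°C (14.4% of 20513 genes), 21 of 32 were up-regulated and 4 down-regulated in *mut-16* at 25°C (31.8% and 24.6%), 18 were up-regulated and 3 down-regulated by heat in *mut-16* (31.0% and 23.6%), 16 were up-regulated by heat in wild-type (13.7%), and 10 had a lower response to heat in *mut-16* (11.3%).

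With total counts as the scaling, the lower calls shifted. Heat in *mut-16* then up-regulated 18 and down-regulated 0 of the 24 genes, against 52.4% and 12.4% of all genes. In *mut-16* against wild-type at 25°C, 18 were up-regulated and 2 (*spe-5* and *spe-39*) down-regulated, against 49.5% and 18.3% of all genes. For the difference in heat response, 6 were lower in *mut-16* (*gsp-3*, *gsp-4*, *spe-5*, *spe-6*, *spe-11* and *spe-41*) and 1 was higher (*spe-47*), against 6.07% and 21.6% of all genes. Among all called genes, the share that was higher moved to 80.9% (TMM 55.4%) for heat in *mut-16*, to 73.0% (TMM 55.8%) for *mut-16* at 25°C, to 56.6% (TMM 69.8%) for *mut-16* at 20°C and to 78.0% (TMM 31.2%) for the difference.

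**Figure D2:**
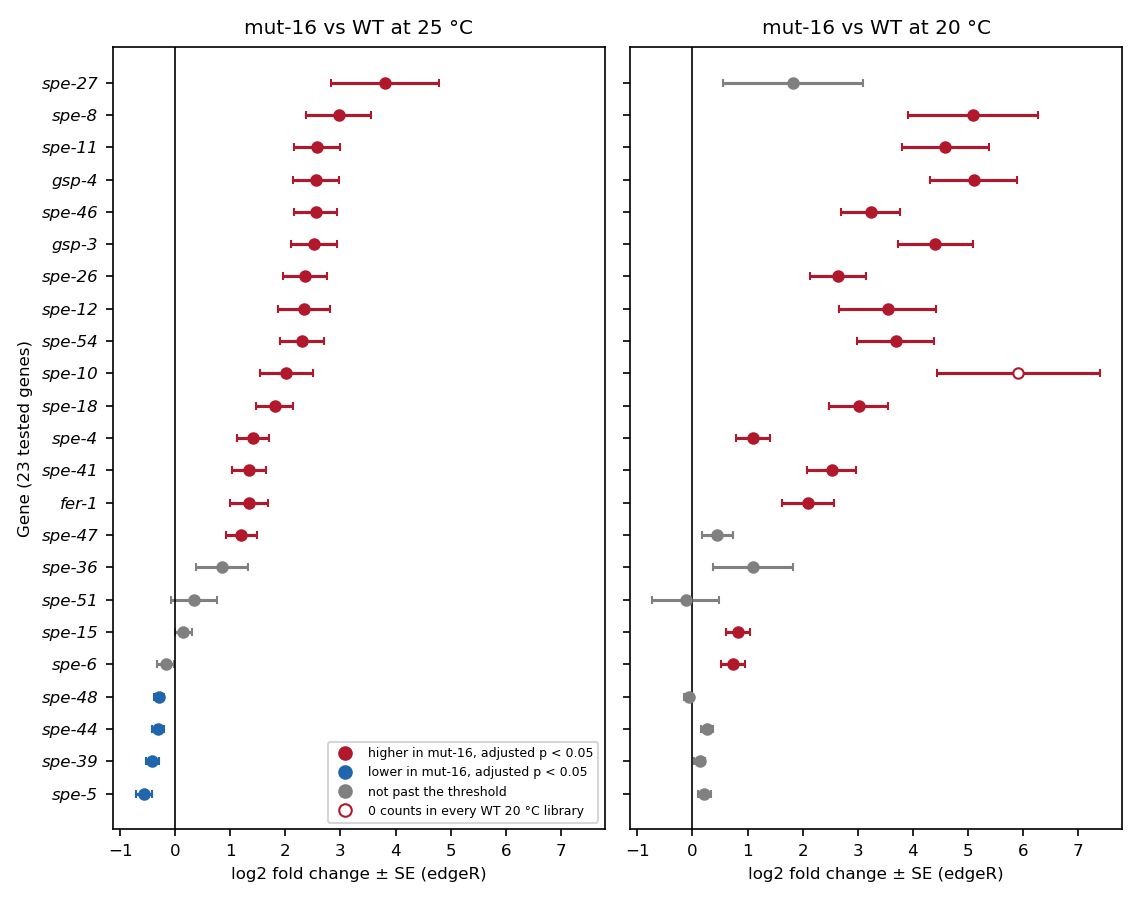
Log2 fold change of mRNA in *mut-16* against wild-type at 25°C (left) and at 20°C (right) for 23 of the 24 tested genes (vertical), with bars of 1 standard error and an open point for *spe-10*, which had no count in wild-type at 20°C. At 20°C the called genes lie to the right of 0, with *gsp-4* at 5.10, while at 25°C *spe-5*, *spe-39*, *spe-44* and *spe-48* lie to the left between -0.57 and -0.29.

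Genes of kinase and phosphatase signalling, which direct spermatocyte division and spermatid differentiation, included the genes with the largest genotype effects. The phosphatase gene *gsp-4* (chromosome I, 3838237 to 3839673 in WBcel235) had 10.7, 11.4 and 11.2 RPM in *mut-16* at 25°C, against 0.978, 1.73 and 2.14 RPM in wild-type at 25°C, and 3.48, 5.41 and 5.43 RPM in *mut-16* at 20°C, against 0.116, 0.184 and 0.165 RPM in wild-type at 20°C. The groups did not overlap, and the lowest *mut-16* library at 20°C was above the highest wild-type library at 25°C. Its fold in *mut-16* against wild-type was 5.10 ± 0.79, adjusted p = 9.28e-09 at 20°C and 2.55 ± 0.42, adjusted p = 4.97e-08 at 25°C, and its heat response was 0.90 in *mut-16* and 3.45 in wild-type. Its close relative *gsp-3* (chromosome I, 4709259 to 4710712) had 7.92, 7.81 and 8.87 RPM in *mut-16* at 25°C, against 1.10, 1.08 and 1.49 RPM in wild-type at 25°C, and 3.61, 6.56 and 4.54 RPM in *mut-16* at 20°C, against 0.234, 0.247 and 0.206 RPM in wild-type at 20°C. It followed the same order of groups, without overlap between genotypes at either temperature. Its fold was 4.41 ± 0.68, adjusted p = 7.99e-09 at 20°C and 2.52 ± 0.42, adjusted p = 5.92e-08 at 25°C, and heat raised it by 2.32 ± 0.53, adjusted p = 0.000159 in wild-type. Its heat response in *mut-16*, 0.44 ± 0.19, adjusted p = 0.03, lost its call without replicate 1 of *mut-16* at 20°C (0.26, adjusted p = 0.17) or replicate 3 of *mut-16* at 25°C (0.38, adjusted p = 0.108). The coding sequences of the pair are 915 bases each and identical at 869 of them (95.0%), so the split of reads between *gsp-3* and *gsp-4* is uncertain.

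The kelch-repeat gene *spe-26*, needed for spermatocyte division, averaged 3.43 ± 0.462 RPM in *mut-16* at 25°C, against 0.584 ± 0.0778 RPM in wild-type at 25°C, and 1.43 ± 0.221 RPM in *mut-16* at 20°C, against 0.232 ± 0.0912 RPM in wild-type at 20°C (SD, n = 3). It was up-regulated in *mut-16* by 2.64 ± 0.51, adjusted p = 4.39e-06 at 20°C and 2.35 ± 0.41, adjusted p = 1.84e-07 at 25°C. Heat raised it by 0.97 ± 0.25, adjusted p = 0.00026 in *mut-16* and by 1.26 ± 0.42, adjusted p = 0.0122 in wild-type, where the call was lost without replicate 1 of wild-type at 20°C (1.01, adjusted p = 0.0667). The casein kinase 1 gene *spe-6*, which acts in fibrous body assembly and holds back spermatid activation, had 8.55, 9.00 and 9.88 RPM in *mut-16* at 25°C, against 9.87, 8.75 and 8.34 RPM in wild-type at 25°C, and 5.46, 4.44 and 5.78 RPM in *mut-16* at 20°C, against 2.5, 4.15 and 3.34 RPM in wild-type at 20°C. The 2 groups at 25°C overlapped and lay above all libraries at 20°C. Its heat response was 1.41 ± 0.28, adjusted p = 1.11e-05 in wild-type. In *mut-16* it was 0.49 ± 0.18, adjusted p = 0.0104, a call that was lost without replicate 2 of *mut-16* at 20°C (0.37, adjusted p = 0.0681). It was up-regulated in *mut-16* at 20°C by 0.74 ± 0.22, adjusted p = 0.00356, and at 25°C the difference was -0.18 ± 0.15, adjusted p = 0.295.

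The transcription factor gene *spe-44*, a regulator of the switch from mitosis to sperm meiosis that acts upstream of many sperm genes, was not raised with the others. It had 19.2, 21.3 and 19.4 RPM in *mut-16* at 25°C, against 21.3, 21.1 and 22.2 RPM in wild-type at 25°C, and 22.7, 23 and 20.8 RPM in *mut-16* at 20°C, against 17.2, 20.5 and 21.2 RPM in wild-type at 20°C. Its libraries overlapped between the genotypes at both temperatures. It was called down-regulated in *mut-16* at 25°C (-0.32 ± 0.11, adjusted p = 0.00945) and by heat in *mut-16* (-0.46 ± 0.13, adjusted p = 0.000734), yet neither call held with total counts (-0.11, adjusted p = 0.341, and -0.15, adjusted p = 0.198). Heat in wild-type gave 0.11 ± 0.10, adjusted p = 0.414.

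**Figure D3:**
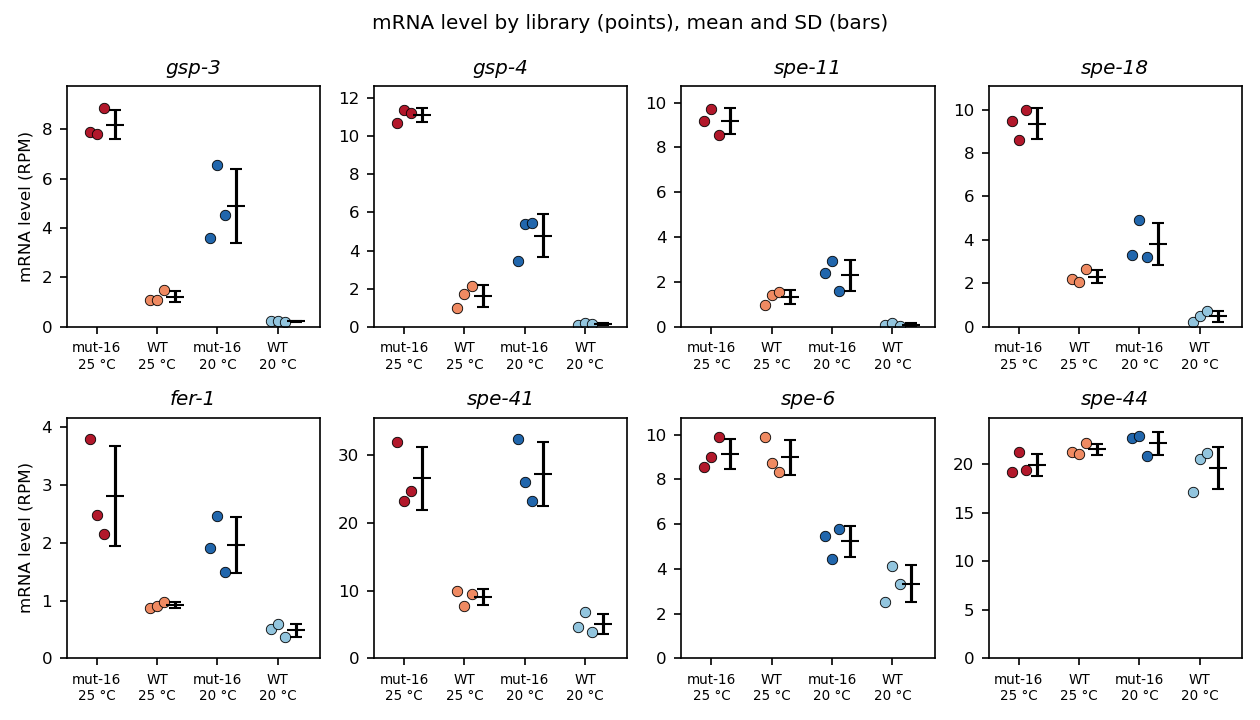
mRNA level in RPM of *gsp-3*, *gsp-4*, *spe-11*, *spe-18*, *fer-1*, *spe-41*, *spe-6* and *spe-44* in each library of the 4 groups, as points, with the mean and SD of each group as bars (n = 3). *gsp-4* averages 11.1 RPM in *mut-16* at 25°C against 1.61 RPM in wild-type at 25°C, and 4.77 RPM in *mut-16* at 20°C against 0.155 RPM in wild-type at 20°C, whereas *spe-44* stays between 17.2 and 23 RPM.

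Genes of the fibrous body-membranous organelles, the sperm-specific vesicles that carry major sperm protein and later fuse with the plasma membrane, were mostly up-regulated in *mut-16*. The gene for the fibrous body assembly protein *spe-18* (chromosome II, 13151459 to 13153399) had 9.46, 8.59 and 10.0 RPM in *mut-16* at 25°C, against 2.21, 2.07 and 2.65 RPM in wild-type at 25°C, and 3.30, 4.91 and 3.20 RPM in *mut-16* at 20°C, against 0.200, 0.485 and 0.743 RPM in wild-type at 20°C. Each mutant library was above each wild-type library of its temperature. Its fold in *mut-16* was 3.02 ± 0.54, adjusted p = 7.22e-07 at 20°C and 1.80 ± 0.34, adjusted p = 1.81e-06 at 25°C, and its heat response was 0.99 ± 0.25, adjusted p = 0.000316 in *mut-16* and 2.20 ± 0.47, adjusted p = 6.28e-05 in wild-type. The presenilin gene *spe-4*, which acts in spermatocyte membranous organelles, had 4.73, 5.29 and 4.24 RPM in *mut-16* at 25°C, against 1.11, 1.69 and 1.76 RPM in wild-type at 25°C, and 1.72, 1.5 and 2.00 RPM in *mut-16* at 20°C, against 0.802, 1.08 and 0.743 RPM in wild-type at 20°C. Its folds were 1.42 ± 0.29, adjusted p = 8.35e-06 in *mut-16* at 25°C, 1.10 ± 0.31, adjusted p = 0.00193 at 20°C and 1.12 ± 0.26, adjusted p = 7.99e-05 for heat in *mut-16*. Heat in wild-type gave 0.81 ± 0.28, adjusted p = 0.0178, a call lost on leaving out replicate 1 (adjusted p = 0.0618) or 3 (0.0748) of wild-type at 20°C, or replicate 2 (0.0628) or 3 (0.0759) of wild-type at 25°C.

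The palmitoyltransferase gene *spe-10* had 1.17, 1.16 and 0.877 RPM in *mut-16* at 25°C, against 0.185, 0.176 and 0.299 RPM in wild-type at 25°C, and 0.191, 0.280 and 0.347 RPM in *mut-16* at 20°C, against 0 RPM in every library of wild-type at 20°C. Since the last group summed to 0 counts, its level was at least 5.82-fold higher in *mut-16* at 20°C (19 counts against a floor of 3 over the group) and at least 4.62-fold higher in wild-type at 25°C (17 counts). These bounds take the counts of the higher group as exact. Between groups with counts, it was higher in *mut-16* at 25°C by 2.02 ± 0.48, adjusted p = 0.000114 and higher with heat in *mut-16* by 1.59 ± 0.43, adjusted p = 0.000691.

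The ferlin gene *fer-1* (chromosome I, 8623012 to 8631202), needed for fusion of the membranous organelles, had 3.80, 2.49 and 2.15 RPM in *mut-16* at 25°C, against 0.877, 0.913 and 0.972 RPM in wild-type at 25°C, and 1.91, 2.46 and 1.5 RPM in *mut-16* at 20°C, against 0.501, 0.592 and 0.372 RPM in wild-type at 20°C. The genotypes did not overlap at either temperature, while the temperatures overlapped within *mut-16*. It was up-regulated in *mut-16* by 2.10 ± 0.46, adjusted p = 7.65e-05 at 20°C and 1.34 ± 0.34, adjusted p = 0.000251 at 25°C. No heat response passed the test, with 0.16 ± 0.24, adjusted p = 0.538 in *mut-16* and 0.92 ± 0.39, adjusted p = 0.0574 in wild-type. The myosin VI gene *spe-15*, which sorts organelles during spermatid budding, had 25.6, 18.2 and 17.9 RPM in *mut-16* at 25°C, against 15.1, 15.9 and 16.7 RPM in wild-type at 25°C, and 9.38, 12.0 and 8.20 RPM in *mut-16* at 20°C, against 5.56, 5.49 and 6.48 RPM in wild-type at 20°C. Its levels were highest in *mut-16* at 25°C, above each wild-type library of that temperature. The fold there did not pass the test with TMM (0.15 ± 0.15, adjusted p = 0.375) and passed it with total counts (0.35, adjusted p = 0.0425). It was up-regulated in *mut-16* at 20°C by 0.83 ± 0.22, adjusted p = 0.00112 and by heat by 0.74 ± 0.20, adjusted p = 0.000589 in *mut-16* and 1.42 ± 0.27, adjusted p = 8.25e-06 in wild-type.

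The remaining 2 genes of this class are also used outside sperm. The gene *spe-5*, a subunit of the vacuolar proton pump, had 14.0, 20.2 and 19 RPM in *mut-16* at 25°C, against 22.9, 24.1 and 21.6 RPM in wild-type at 25°C, and 14.1, 15.8 and 14.4 RPM in *mut-16* at 20°C, against 14.0, 13.1 and 13.4 RPM in wild-type at 20°C. All *mut-16* libraries at 25°C lay below those of wild-type at 25°C, with a fold of -0.57 ± 0.14, adjusted p = 0.000279 that stayed called with total counts (-0.35, adjusted p = 0.0139). Heat raised it in wild-type (0.75 ± 0.16, adjusted p = 0.000102), and in *mut-16* the change was -0.04 ± 0.11, adjusted p = 0.767. The endolysosomal trafficking gene *spe-39* (chromosome V, 6785451 to 6787864) had 86.6, 86.4 and 85.7 RPM in *mut-16* at 25°C, against 101, 95.0 and 103 RPM in wild-type at 25°C, and 104.4, 100.1 and 83.6 RPM in *mut-16* at 20°C, against 87.7, 96.6 and 95.8 RPM in wild-type at 20°C. Its libraries did not overlap between genotypes at 25°C and overlapped at 20°C. The fold in *mut-16* at 25°C was -0.41 ± 0.12, adjusted p = 0.00102, and -0.21 (adjusted p = 0.0444) with total counts. Heat in *mut-16* gave -0.47 ± 0.12, adjusted p = 0.000422, and -0.15 (adjusted p = 0.128) with total counts.

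Genes that time spermatid activation, the step that turns round spermatids into crawling spermatozoa, were low in wild-type at 20°C. The tyrosine kinase gene *spe-8*, which heads the pathway that answers the extracellular activation signal, had 2.72, 2.33 and 1.90 RPM in *mut-16* at 25°C, against 0.0923, 0.246 and 0.374 RPM in wild-type at 25°C, and 0.335, 0.654 and 0.963 RPM in *mut-16* at 20°C, against 0, 0 and 0.0413 RPM in wild-type at 20°C. With 46 counts in *mut-16* at 20°C and 1 count in wild-type at 20°C, the ratio of levels was 42.3 (95% counting interval 7.22 to 1706). The ratio of wild-type at 25°C to wild-type at 20°C was 15.5 (2.46 to 644), and that call was lost without replicate 1 of wild-type at 20°C (adjusted p = 0.057) or replicate 3 of wild-type at 25°C (0.0638). At 25°C, *spe-8* was up-regulated in *mut-16* by 2.97 ± 0.59, adjusted p = 5.41e-06, and heat in *mut-16* raised it by 1.44 ± 0.40, adjusted p = 0.000771. The membrane protein gene *spe-12* of the same pathway had 2.98, 2.49 and 2.28 RPM in *mut-16* at 25°C, against 0.507, 0.386 and 0.411 RPM in wild-type at 25°C, and 0.766, 0.701 and 0.308 RPM in *mut-16* at 20°C, against 0.0501, 0.108 and 0 RPM in wild-type at 20°C. Its ratio was 12.0 (3.80 to 60.5) for mutants against wild-type at 20°C and 8.98 (2.82 to 45.7) for heat in wild-type. Its fold was 2.34 ± 0.47, adjusted p = 6.58e-06 in *mut-16* at 25°C and 1.82 ± 0.41, adjusted p = 6.04e-05 for heat in *mut-16*. Both intervals cover counting error only, since the counts carry no molecular identifiers.

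Of the other activation genes, *spe-27* of the *spe-8* pathway averaged 0.729 RPM in *mut-16* at 25°C, against 0.0366 RPM in wild-type at 25°C, and 0.121 RPM in *mut-16* at 20°C, against 0.0275 RPM in wild-type at 20°C. It was 17.9-fold higher in *mut-16* at 25°C by counts (5.84 to 89.6), and heat in *mut-16* raised it by 2.23 ± 0.73, adjusted p = 0.00411, or 3.61 without replicate 1 of *mut-16* at 20°C. The gene for the MSP-domain protein *spe-47*, which acts in the timing of activation, had 3.05, 2.77 and 2.28 RPM in *mut-16* at 25°C, against 0.877, 1.23 and 0.860 RPM in wild-type at 25°C, and 1.10, 0.841 and 0.847 RPM in *mut-16* at 20°C, against 0.802, 0.646 and 0.702 RPM in wild-type at 20°C. The first group stood apart from the other 3, which lay between 0.646 and 1.23 RPM. It was up-regulated in *mut-16* at 25°C by 1.20 ± 0.28, adjusted p = 8.29e-05 and by heat in *mut-16* by 1.20 ± 0.29, adjusted p = 0.000125, and it did not pass the test in *mut-16* at 20°C (0.45 ± 0.28, adjusted p = 0.197) or for heat in wild-type (0.45 ± 0.27, adjusted p = 0.192). Among the untested members of the pathway, *spe-19* averaged 0.307 RPM in *mut-16* at 25°C, against 0.0242 RPM in wild-type at 25°C, and 0.127 RPM in *mut-16* at 20°C, against 0 RPM in wild-type at 20°C. Its 9 counts in *mut-16* at 20°C stood 2.76-fold above the floor of 3, and its ratio in *mut-16* against wild-type at 25°C was 13.2 (3.33 to 115). *spe-29* averaged 0.0922 RPM in *mut-16* at 25°C, against 0 RPM in wild-type at 25°C, and 0.0315 RPM in *mut-16* at 20°C, against 0 RPM in wild-type at 20°C. Its 9 counts in *mut-16* at 25°C stood 2.83-fold above the floor of 3. *spe-43* averaged 0.317 RPM in *mut-16* at 25°C, against 0.174 RPM in wild-type at 25°C, and 0.149 RPM in *mut-16* at 20°C, against 0.0968 RPM in wild-type at 20°C.

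Genes for proteins on or released from the sperm at fertilization were mostly too low for a test. With TMM, 1 of the 3 tested, the channel gene *spe-41*, was up-regulated in *mut-16* against wild-type. *spe-41* (chromosome III, 3439011 to 3444210), a calcium-permeable TRPC channel of the sperm surface, had 31.9, 23.2 and 24.7 RPM in *mut-16* at 25°C, against 9.97, 7.73 and 9.42 RPM in wild-type at 25°C, and 32.4, 26 and 23.2 RPM in *mut-16* at 20°C, against 4.61, 6.79 and 3.84 RPM in wild-type at 20°C. The mutant libraries lay at similar levels at both temperatures and above all wild-type libraries. Its fold in *mut-16* was 2.52 ± 0.45, adjusted p = 6.36e-07 at 20°C and 1.34 ± 0.31, adjusted p = 5.3e-05 at 25°C. Its heat response in *mut-16* was -0.35 ± 0.20, adjusted p = 0.102, and in wild-type 0.83 ± 0.27, adjusted p = 0.0117, which lost its call without replicate 3 of wild-type at 20°C (0.65, adjusted p = 0.0601). The gene for the secreted immunoglobulin-like protein *spe-51* was called only for heat in *mut-16* (1.11 ± 0.52, adjusted p = 0.0466), a call lost without replicate 1 (0.79, adjusted p = 0.17) or 3 (0.0645) of *mut-16* at 20°C or replicate 2 (0.174) or 3 (0.0594) of *mut-16* at 25°C. The gene for the secreted EGF-like protein *spe-36* averaged 0.728 RPM in *mut-16* at 25°C, against 0.363 RPM in wild-type at 25°C, and 0.299 RPM in *mut-16* at 20°C, against 0.139 RPM in wild-type at 20°C. It was called in no comparison of mRNA with TMM. With total counts it was called for heat in *mut-16* (1.27, adjusted p = 0.0238) and in *mut-16* at 25°C (1.06, adjusted p = 0.0413).

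The other fertilization genes were too low for a test. The EGF-repeat gene *spe-9*, whose product sits on the sperm surface, had 0.389, 0.504 and 0.409 RPM in *mut-16* at 25°C, against 0.369, 0.140 and 0.150 RPM in wild-type at 25°C, and 0.191, 0.234 and 0.27 RPM in *mut-16* at 20°C, against 0, 0.108 and 0.206 RPM in wild-type at 20°C. At 25°C the mutant libraries lay just above the highest wild-type library, and at 20°C the genotypes overlapped. The gene *spe-38*, for a small membrane protein, averaged 0.381 RPM in *mut-16* at 25°C, against 0.0513 RPM in wild-type at 25°C, and 0.174 RPM in *mut-16* at 20°C, against 0 RPM in wild-type at 20°C. Against 0 counts in the last group, its 11 counts in *mut-16* at 20°C stood 3.37-fold above the floor of 3. Its 4 counts in wild-type at 25°C were too few to show a direction with heat. The DC-STAMP-domain genes averaged 0.442 RPM in *mut-16* at 25°C, against 0.103 RPM in wild-type at 25°C, and 0.125 RPM in *mut-16* at 20°C, against 0.0539 RPM in wild-type at 20°C for *spe-42*, and 0.636 RPM in *mut-16* at 25°C, against 0.0850 RPM in wild-type at 25°C, and 0.162 RPM in *mut-16* at 20°C, against 0.0180 RPM in wild-type at 20°C for *spe-49*. In each of these 4 genes the mean was highest in *mut-16* at 25°C.

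The paternal factor gene *spe-11* (chromosome I, 5330578 to 5332169), whose product enters the oocyte with the sperm and is needed for egg activation, had 9.20, 9.72 and 8.57 RPM in *mut-16* at 25°C, against 0.969, 1.40 and 1.57 RPM in wild-type at 25°C, and 2.39, 2.95 and 1.58 RPM in *mut-16* at 20°C, against 0.10, 0.162 and 0.0413 RPM in wild-type at 20°C. No 2 groups with different genotypes overlapped at a temperature, and both heated groups lay above their 20°C counterparts. Its fold in *mut-16* was 4.59 ± 0.79, adjusted p = 2.61e-07 at 20°C and 2.57 ± 0.42, adjusted p = 5.62e-08 at 25°C, and its heat response was 1.69 ± 0.32, adjusted p = 3.03e-06 in *mut-16* and 3.71 ± 0.73, adjusted p = 1.38e-05 in wild-type. Another 2, for which no role is given here, followed the same order: *spe-46* had 5.44, 5.66 and 6.26 RPM in *mut-16* at 25°C, against 0.784, 0.948 and 0.823 RPM in wild-type at 25°C, and 1.63, 2.15 and 1.85 RPM in *mut-16* at 20°C, against 0.200, 0.162 and 0.248 RPM in wild-type at 20°C, and *spe-54* had 4.34, 5.07 and 4.62 RPM in *mut-16* at 25°C, against 0.600, 1.19 and 0.636 RPM in wild-type at 25°C, and 1.05, 1.31 and 1.27 RPM in *mut-16* at 20°C, against 0.10, 0.0539 and 0.124 RPM in wild-type at 20°C. Their folds in *mut-16* were 3.24 ± 0.54, adjusted p = 7.82e-08 and 3.69 ± 0.70, adjusted p = 3.16e-06 at 20°C and 2.55 ± 0.39, adjusted p = 6.03e-09 and 2.29 ± 0.40, adjusted p = 2.11e-07 at 25°C. By contrast, *spe-48* had 43.2, 43.9 and 43.4 RPM in *mut-16* at 25°C, against 47, 45.9 and 45.7 RPM in wild-type at 25°C, and 43.6, 41.5 and 39.2 RPM in *mut-16* at 20°C, against 46.6, 44.9 and 46.9 RPM in wild-type at 20°C. It was called down-regulated in *mut-16* at 25°C (-0.29 ± 0.09, adjusted p = 0.00278, and -0.09, adjusted p = 0.315, with total counts). For heat in *mut-16* its change was -0.24 ± 0.09, adjusted p = 0.0101, and turned to 0.07 (adjusted p = 0.415) with total counts.

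The log2 response to heat was lower in *mut-16* than in wild-type for 11 of the 24 genes. For 9 of these the mutant showed a smaller change, while *spe-39* and *spe-44* fell in *mut-16* (-0.47 and -0.46) and did not pass the test in wild-type (0.07 and 0.11). The largest differences among called genes with a mean of at least 1 RPM were in *gsp-4* (-2.55 ± 0.64, adjusted p = 0.00178), *spe-11* (-2.02 ± 0.66, adjusted p = 0.0136), *gsp-3* (-1.89 ± 0.53, adjusted p = 0.0043), *spe-18* (-1.21 ± 0.44, adjusted p = 0.0249) and *spe-41* (-1.18 ± 0.37, adjusted p = 0.00959). In *spe-41* the mutant did not respond past the test, and in the other 4 the heat responses of both genotypes were positive and called. The difference for *spe-11* lost its call without replicate 3 of wild-type at 20°C (-1.62, adjusted p = 0.0627). That for *spe-18* lost it without replicate 1 of wild-type at 20°C (-0.88, adjusted p = 0.0767), replicate 3 of wild-type at 25°C (0.0549), replicate 2 of *mut-16* at 20°C (0.0527) or replicate 2 of *mut-16* at 25°C (0.0513). The genes *spe-6* (-0.92 ± 0.28, adjusted p = 0.00888), *spe-5* (-0.78 ± 0.21, adjusted p = 0.00256), *spe-44* (-0.58 ± 0.17, adjusted p = 0.00753) and *spe-39* (-0.54 ± 0.16, adjusted p = 0.0075) also differed. With total counts *spe-44* (-0.28, adjusted p = 0.142) and *spe-39* (-0.25, adjusted p = 0.142) lost the call. So did *spe-18* (-0.92, adjusted p = 0.0799), *spe-15* (-0.39, adjusted p = 0.197) and *spe-10* (adjusted p = 0.055). The call for *spe-15* (-0.68 ± 0.26, adjusted p = 0.0317) was lost on leaving out any 1 of 5 libraries, replicate 1 of wild-type at 20°C, replicate 3 of wild-type at 25°C, replicate 2 of *mut-16* at 20°C and replicates 2 and 3 of *mut-16* at 25°C (adjusted p 0.0617 to 0.0836), and that for *spe-10* (0.0359) on leaving out any 1 of 7, namely the 3 of wild-type at 20°C, replicate 3 of wild-type at 25°C, replicates 2 and 3 of *mut-16* at 20°C and replicate 3 of *mut-16* at 25°C (0.0527 to 0.0788).

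Among genes not called, *spe-47* had the opposite sign (0.75 ± 0.37, adjusted p = 0.0991) and was called with total counts (1.04, adjusted p = 0.0321). The differences for *fer-1* (-0.76 ± 0.45, adjusted p = 0.178) and *spe-26* (-0.29 ± 0.48, adjusted p = 0.661) did not pass the test. Of the calls in the 5 comparisons, all 16 for *mut-16* at 20°C and all 20 for *mut-16* at 25°C held without each single library in turn, as did 17 of 20 for heat in *mut-16*, 11 of 16 for heat in wild-type and 7 of 11 for the difference.

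The DNA upstream of the genes is shown for 2 that were higher in *mut-16* (*spe-26* and *spe-41*) and 2 that were not (*spe-39* and *spe-44*), as the 200 bases before the annotated gene start, on the gene's strand and read 5′ to 3′, from the WBcel235 genome sequence. Capitals mark GATAA or its reverse complement TTATC, the core of GATA factor sites, searched on both strands because the GATA factor ELT-1 is known to bind near sperm genes.
*spe-26*, chrIV:10391928-10392127, minus strand: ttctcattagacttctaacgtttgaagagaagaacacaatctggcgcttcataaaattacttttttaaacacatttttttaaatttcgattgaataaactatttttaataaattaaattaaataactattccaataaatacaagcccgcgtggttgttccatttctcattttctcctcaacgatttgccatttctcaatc
*spe-41*, chrIII:3444211-3444410, minus strand: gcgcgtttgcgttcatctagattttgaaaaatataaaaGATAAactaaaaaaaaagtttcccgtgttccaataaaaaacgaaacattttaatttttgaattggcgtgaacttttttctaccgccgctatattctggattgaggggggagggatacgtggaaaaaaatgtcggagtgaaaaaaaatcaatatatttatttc
*spe-39*, chrV:6785251-6785450, plus strand: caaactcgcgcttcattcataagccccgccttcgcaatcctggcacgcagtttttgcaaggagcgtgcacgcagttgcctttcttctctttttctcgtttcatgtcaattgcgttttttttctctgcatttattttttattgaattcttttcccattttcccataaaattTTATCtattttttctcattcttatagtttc
*spe-44*, chrIV:12454216-12454415, minus strand: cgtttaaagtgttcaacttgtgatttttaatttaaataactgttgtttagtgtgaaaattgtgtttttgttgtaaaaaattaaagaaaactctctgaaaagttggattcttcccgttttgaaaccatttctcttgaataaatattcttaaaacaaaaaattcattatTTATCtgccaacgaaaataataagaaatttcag
No such letters stand in the window of *spe-26*, and 1 match stands in each of the other 3. Over the 32 genes, 15 windows (46.9%) held a match, against 45.5% of the windows of 19984 protein-coding genes, so the motif was about as frequent as elsewhere. The median GC content was 32.5% over the 32 windows and 33.0% over those of all protein-coding genes. A match is a description of the letters, and its absence says nothing about the factor.

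**Figure D4:**
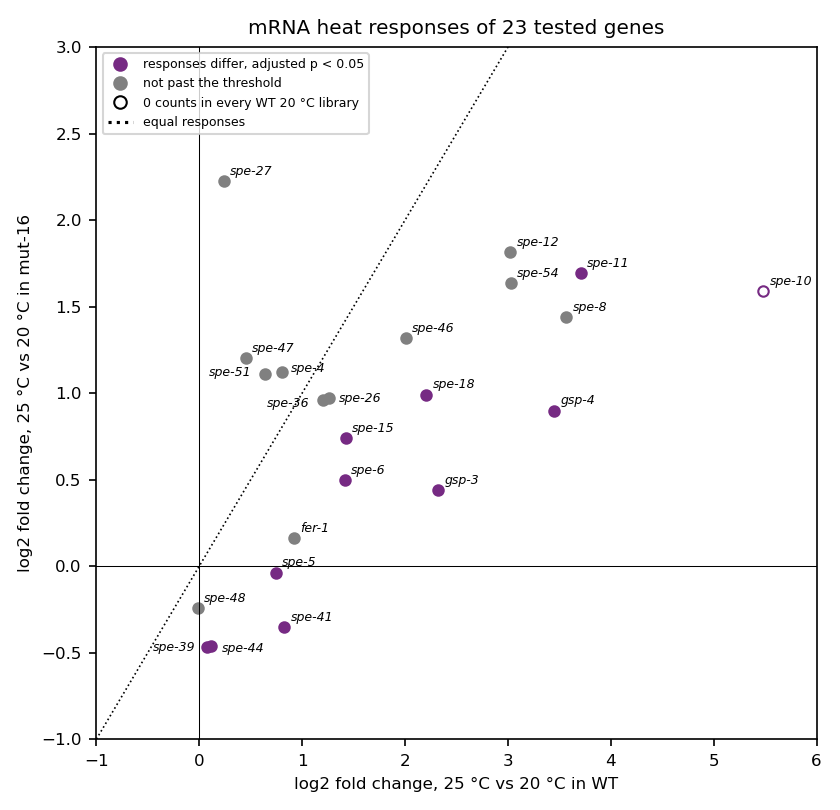
Log2 fold change of mRNA for 25°C against 20°C in *mut-16* (vertical axis) and in wild-type (horizontal axis) for 23 of the 24 tested genes, with the line of equal responses. Points to the lower right of the line, such as *gsp-4* (0.90 in *mut-16* and 3.45 in wild-type), had a lower response to heat in *mut-16*, and *spe-47* (1.20 in *mut-16* and 0.45 in wild-type) lies above the line.

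Other genes of the sperm program, named from general knowledge, were mostly up-regulated in *mut-16* as well. Of 20 sperm genes outside the spe and fer classes, all tested, 14 were up-regulated and 0 down-regulated in *mut-16* at 20°C, 14 and 5 in the mutant at 25°C, 13 and 5 by heat in *mut-16* and 9 and 1 by heat in wild-type, with medians of 1.94, 1.69, 0.66 and 0.90. Of all genes, 25.9% were up- and 11.2% down-regulated in *mut-16* at 20°C, and 41.1% and 32.6% at 25°C. The shares were 40.2% and 32.3% for heat in *mut-16*, and 22.6% and 9.78% for heat in wild-type. The 5 sperm genes that were lower in the mutant at 25°C were elt-1 (log2 fold change -0.43), fem-3 (-0.53), fog-1 (-0.32), cpb-1 (-0.58) and nhr-23 (-0.36). With total counts as the scaling only fem-3 (-0.32) and cpb-1 (-0.37) of them passed the test. The histone variant gene *htas-1* averaged 4.82 RPM in *mut-16* at 25°C, against 0.656 RPM in wild-type at 25°C, and 1.63 RPM in *mut-16* at 20°C, against 0.0620 RPM in wild-type at 20°C, and the Argonaute genes *alg-3* and *alg-4*, which act in spermatogenesis, showed the same order of means. Of 54 tested genes of the msp, ssp, ssq and nspd classes, 52 were up-regulated in *mut-16* at 20°C, 53 in *mut-16* at 25°C, 20 by heat in *mut-16* (38 with total counts, against 52.4% of all genes) and 48 by heat in wild-type. The 57 genes of these classes summed to 793 ± 48.1 RPM in *mut-16* at 25°C, against 129 ± 31.5 RPM in wild-type at 25°C, and 552 ± 89.1 RPM in *mut-16* at 20°C, against 17.5 ± 2.05 RPM in wild-type at 20°C (SD, n = 3). Broadly expressed relatives of the sperm genes, such as the phosphatase genes *gsp-1* and *gsp-2*, moved little: of 6, 1 was up-regulated in *mut-16* at 20°C and 1 up- and 3 down-regulated at 25°C, which became 2 up and 1 down with total counts. Of 9 genes for small RNA factors of the ALG-3, ALG-4 and ERGO-1 pathway, 3 were up- and 1 down-regulated in *mut-16* at 20°C, and 2 up- and 6 down-regulated at 25°C, or 2 and 4 with total counts. The counts at 20°C were near the shares of all genes. With total counts those shares were 49.5% up and 18.3% down at 25°C.

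Markers of other cells moved with the groups as well, and their part in the results was not tested. Sums over 10 genes of male-specific cells were 2.85 to 3.48 RPM in *mut-16* at 25°C, against 0.969 to 1.33 RPM in wild-type at 25°C, and 0.608 to 1.35 RPM in *mut-16* at 20°C, against 0.451 to 0.826 RPM in wild-type at 20°C. Of these 10 genes, 1 had no count in any library of *mut-16* at 25°C, 2 had none in wild-type at 25°C, and 3 had none in either group at 20°C. Only 2 of them passed the filter, of which 2 were up-regulated in *mut-16* at 25°C and 0 at 20°C by edgeR, against 41.1% and 25.9% of all genes. Sums over 10 oocyte genes were 5092 to 5488 RPM in *mut-16* at 25°C, against 7619 to 7764 RPM in wild-type at 25°C, and 7634 to 8008 RPM in *mut-16* at 20°C, against 7111 to 8401 RPM in wild-type at 20°C, and all 10 were down-regulated in *mut-16* at 25°C. Of 8 genes of the germ line of both sexes, 8 were down-regulated in *mut-16* at 25°C and 1 at 20°C, against 32.6% and 11.2% of all genes. With total counts all 10 oocyte genes and all 8 of these were lower in *mut-16* at 25°C too, against 18.3% of all genes. Neuronal genes (3) summed to 45.7 ± 0.628 RPM in *mut-16* at 25°C, against 20.5 ± 0.454 RPM in wild-type at 25°C, and 16.3 ± 1.56 RPM in *mut-16* at 20°C, against 13.3 ± 2.01 RPM in wild-type at 20°C. Muscle genes (3) summed to 743 to 1435 RPM in *mut-16* at 25°C, against 494 to 619 RPM in wild-type at 25°C, and 476 to 738 RPM in *mut-16* at 20°C, against 365 to 633 RPM in wild-type at 20°C. Intestinal genes (4) summed to 18764 to 31925 RPM in *mut-16* at 25°C, against 31382 to 36106 RPM in wild-type at 25°C, and 26331 to 34905 RPM in *mut-16* at 20°C, against 32288 to 38937 RPM in wild-type at 20°C.

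Small RNA counts on the sperm function genes were totals over all small RNA classes, without strand or length. Summed over the 32 genes they were 368 ± 6.34 RPM in *mut-16* at 25°C, against 729 ± 30.0 RPM in wild-type at 25°C, and 366 ± 11.3 RPM in *mut-16* at 20°C, against 544 ± 17.7 RPM in wild-type at 20°C (SD, n = 3). Without *spe-5*, *spe-15*, *spe-39*, *spe-44* and *spe-48* the sums were 105 ± 4.25 RPM in *mut-16* at 25°C, against 512 ± 26.4 RPM in wild-type at 25°C, and 81.0 ± 6.59 RPM in *mut-16* at 20°C, against 330 ± 17.1 RPM in wild-type at 20°C. Most of both wild-type sums lay on *fer-1*, *spe-41* and *spe-47*, so the lower sums in *mut-16* do not describe the other genes. Of the 32 genes, 31 passed the filter, and *spe-29* did not. In *mut-16* against wild-type at 20°C, 13 of the 31 had more and 6 had fewer small RNAs, against 33.6% and 46.8% of all genes tested. At 25°C, 14 had more and 8 had fewer, against 31.3% and 47.1% of all genes. Heat raised small RNAs on 5 and lowered them on 1 (*spe-39*) in *mut-16*, against 8.29% and 17.3% of all genes, and in wild-type it raised them on 15 and lowered them on 1 (*spe-44*), against 20.2% and 17%. Without replicate 1 or replicate 2 of wild-type at 20°C the 15 became 9, and without each single library in turn 7 of the 16 calls for heat in wild-type and 3 of the 6 in *mut-16* held, as did 17 of 19 for the mutant at 20°C, 20 of 22 at 25°C and 2 of 4 for the difference. The response to heat was lower in *mut-16* for 4 and higher for 0, against 12.6% and 5.70% of all genes, with 3 higher at an unadjusted p under 0.05 in edgeR and 0 by DESeq2. Median log2 fold changes over the 31 genes were 0.23 for mutants against wild-type at 20°C (all genes -0.45), 0.47 at 25°C (all genes -0.58), 0.41 for heat in *mut-16* (all genes -0.07), 0.44 for heat in wild-type (all genes 0.04) and -0.28 for the difference (all genes -0.14).

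In RPM, the largest falls in *mut-16* at both temperatures were on *fer-1*, *spe-41*, *spe-47* and *spe-15*. On *fer-1*, small RNA levels were 11.2, 12.8 and 11.5 RPM in *mut-16* at 25°C, against 237, 173 and 147 RPM in wild-type at 25°C, and 7.75, 9.29 and 7.52 RPM in *mut-16* at 20°C, against 168, 159.7 and 134 RPM in wild-type at 20°C. All mutant libraries were under every wild-type library, and the fold was -4.13 ± 0.68, adjusted p = 9.13e-09 at 20°C and -3.93 ± 0.66, adjusted p = 1.62e-08 at 25°C. The channel gene *spe-41* had 10.1, 7.33 and 9.39 RPM in *mut-16* at 25°C, against 102, 111 and 167 RPM in wild-type at 25°C, and 5.46, 8.03 and 5.46 RPM in *mut-16* at 20°C, against 106, 90.2 and 97.6 RPM in wild-type at 20°C. Here too the genotypes did not overlap at either temperature. Its fold was -3.87 ± 0.57, adjusted p = 1.94e-10 at 20°C and -3.74 ± 0.56, adjusted p = 3.02e-10 at 25°C. On *spe-47* the values were 6.07, 7.55 and 6.22 RPM in *mut-16* at 25°C, against 127, 127 and 106 RPM in wild-type at 25°C, and 3.01, 4.11 and 3.27 RPM in *mut-16* at 20°C, against 30.2, 41.3 and 41.6 RPM in wild-type at 20°C. Here the heated libraries exceeded the unheated in both genotypes, with a heat response of 1.02 ± 0.27, adjusted p = 0.0015 in *mut-16* and 1.77 ± 0.30, adjusted p = 2.33e-07 in wild-type, and the fold in *mut-16* was -3.37 ± 0.49, adjusted p = 1.42e-10 at 20°C and -4.12 ± 0.57, adjusted p = 8.02e-12 at 25°C. *spe-15* had 7.1, 8.86 and 7.80 RPM in *mut-16* at 25°C, against 40.1, 38.1 and 38.7 RPM in wild-type at 25°C, and 4.36, 3.90 and 3.27 RPM in *mut-16* at 20°C, against 27, 26.1 and 23.1 RPM in wild-type at 20°C. It too was higher at 25°C in each genotype (1.09 in *mut-16* and 0.72 in wild-type) and lower in *mut-16*, by -2.60 ± 0.40, adjusted p = 5.76e-10 at 20°C and -2.23 ± 0.35, adjusted p = 2.35e-09 at 25°C.

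Another set had few small RNAs at 20°C and a heat response in wild-type that the mutant lacked or showed weakly. On *spe-6*, small RNA levels were 8.98, 8.31 and 8.26 RPM in *mut-16* at 25°C, against 29.4, 29.1 and 30.2 RPM in wild-type at 25°C, and 5.52, 5.16 and 6.35 RPM in *mut-16* at 20°C, against 6.42, 7.81 and 5.43 RPM in wild-type at 20°C. Heated wild-type stood well above the other 3 groups. Heat raised them by 0.64 ± 0.20, adjusted p = 0.00963 in *mut-16* and 2.26 ± 0.37, adjusted p = 7.95e-08 in wild-type, the responses differed by -1.62 ± 0.35, adjusted p = 0.000222, and *mut-16* was lower at 25°C by -1.73 ± 0.31, adjusted p = 8.79e-08, but the difference at 20°C was -0.11 ± 0.17, adjusted p = 0.547. The activation gene *spe-43* had 1.34, 0.975 and 0.633 RPM in *mut-16* at 25°C, against 4.09, 4.52 and 6.69 RPM in wild-type at 25°C, and 1.44, 1.69 and 0.915 RPM in *mut-16* at 20°C, against 1.22, 1.39 and 1.71 RPM in wild-type at 20°C. Its heat response was 1.88 ± 0.44, adjusted p = 0.000198 in wild-type, and the responses differed by -2.25 ± 0.61, adjusted p = 0.00391. The fertilization gene *spe-51* had 0.885, 0.656 and 1.47 RPM in *mut-16* at 25°C, against 6.76, 6.08 and 7.35 RPM in wild-type at 25°C, and 0.893, 0.894 and 0.893 RPM in *mut-16* at 20°C, against 2.51, 2.02 and 2.61 RPM in wild-type at 20°C. Its fold in *mut-16* was -1.29 ± 0.37, adjusted p = 0.000913 at 20°C and -2.66 ± 0.51, adjusted p = 6.17e-07 at 25°C. The differences between heat responses of *spe-51* (-1.37 ± 0.49, adjusted p = 0.0351) and *spe-47* (-0.75 ± 0.28, adjusted p = 0.0428) were each lost on leaving out any of 10 of the 12 libraries, with adjusted p between 0.0576 and 0.121 for *spe-51* and between 0.0626 and 0.275 for *spe-47*.

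*spe-9* and *spe-38* were also called lower in *mut-16*. On *spe-9*, whose mRNA was too low for a test, small RNA levels were 0.885, 0.985 and 0.452 RPM in *mut-16* at 25°C, against 2.03, 2.00 and 2.27 RPM in wild-type at 25°C, and 0.837, 0.894 and 0.595 RPM in *mut-16* at 20°C, against 1.21, 0.790 and 1.5 RPM in wild-type at 20°C. The fold at 25°C was -1.37 ± 0.44, adjusted p = 0.00288. *spe-38* had 2.40, 2.63 and 1.81 RPM in *mut-16* at 25°C, against 2.20, 1.98 and 1.47 RPM in wild-type at 25°C, and 2.00, 1.39 and 1.89 RPM in *mut-16* at 20°C, against 3.10, 3.51 and 3.13 RPM in wild-type at 20°C. Its fold at 20°C was -0.76 ± 0.31, adjusted p = 0.018, and the call was lost without replicate 2 of *mut-16* at 20°C (-0.57, adjusted p = 0.0829).

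More small RNAs in *mut-16* were mostly counted on genes that had few in wild-type. On *spe-18* they amounted to 8.66, 9.56 and 8.17 RPM in *mut-16* at 25°C, against 2.12, 0.908 and 1.26 RPM in wild-type at 25°C, and 6.75, 6.54 and 6.43 RPM in *mut-16* at 20°C, against 0.502, 0.541 and 0.418 RPM in wild-type at 20°C. All mutant libraries exceeded all wild-type libraries, with a fold of 3.83 ± 0.67, adjusted p = 4.01e-08 at 20°C and 2.57 ± 0.49, adjusted p = 6.22e-07 at 25°C, the last of which was 3.30 without replicate 1 of wild-type at 25°C. Its heat response in wild-type, 1.74 ± 0.49, adjusted p = 0.0021, was lost without that library too (1.06, adjusted p = 0.0997). The phosphatase genes were raised alike, *gsp-3* by 3.03 ± 0.63, adjusted p = 4.15e-06 at 20°C and 2.04 ± 0.50, adjusted p = 0.000101 at 25°C, and *gsp-4* by 1.81 and 1.71. *gsp-3* had 2.5, 4.83 and 3.37 RPM in *mut-16* at 25°C, against 1.11, 0.651 and 0.792 RPM in wild-type at 25°C, and 3.85, 3.71 and 3.06 RPM in *mut-16* at 20°C, against 0.314, 0.379 and 0.746 RPM in wild-type at 20°C. In *gsp-3* the genotypes did not overlap at either temperature.

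Of the rest, *spe-46* (2.66 and 1.88), *spe-27* (2.91 and 1.39), *spe-19* (1.94 and 1.66), *spe-12* (1.31 and 1.04) and *spe-48* (0.98 and 0.77) were higher in *mut-16* at 20°C and at 25°C. The gene with the most small RNAs in both mutant groups, *spe-39*, had 171, 165 and 166 RPM in *mut-16* at 25°C, against 116, 112 and 126 RPM in wild-type at 25°C, and 203, 196 and 197 RPM in *mut-16* at 20°C, against 126, 132 and 129.7 RPM in wild-type at 20°C. It was higher in *mut-16* by 0.72 ± 0.12, adjusted p = 2.02e-08 at 20°C and 0.57 ± 0.11, adjusted p = 4.12e-07 at 25°C. Its fall with heat in *mut-16* (-0.19 ± 0.07, adjusted p = 0.023) was lost on leaving out any 1 of 5 libraries (adjusted p 0.061 to 0.0919). Rises in *mut-16* were not particular to sperm function genes. With total counts, small RNAs were higher on all 10 oocyte markers (medians 0.88 at 20°C and 0.76 at 25°C). They were higher on 7 of 8 germ line markers at each temperature, with 1 lower at 20°C. The shares of all genes were 31.7% and 30.0%, and 0 muscle, neuronal or intestinal markers were higher. On *spe-44* small RNA levels were 13.3, 15.1 and 15.0 RPM in *mut-16* at 25°C, against 11.3, 12.2 and 11.3 RPM in wild-type at 25°C, and 15.7, 11.9 and 12.6 RPM in *mut-16* at 20°C, against 15.0, 18.1 and 17.2 RPM in wild-type at 20°C. Its call at 25°C, 0.38 ± 0.18, adjusted p = 0.0407, was lost without replicate 2 (0.105) or 3 (0.0957) of *mut-16* at 25°C, and its fall with heat in wild-type, -0.43 ± 0.18, adjusted p = 0.0445, without replicate 2 (0.103) or 3 (0.0669) of wild-type at 20°C or replicate 3 of wild-type at 25°C (0.0539). *spe-4* was higher in *mut-16* at 25°C (1.00 ± 0.32, adjusted p = 0.00292) and *spe-11* at 20°C (1.25 ± 0.40, adjusted p = 0.00305), while *spe-8* and *spe-54* were called in no small RNA comparison.

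**Figure D5:**
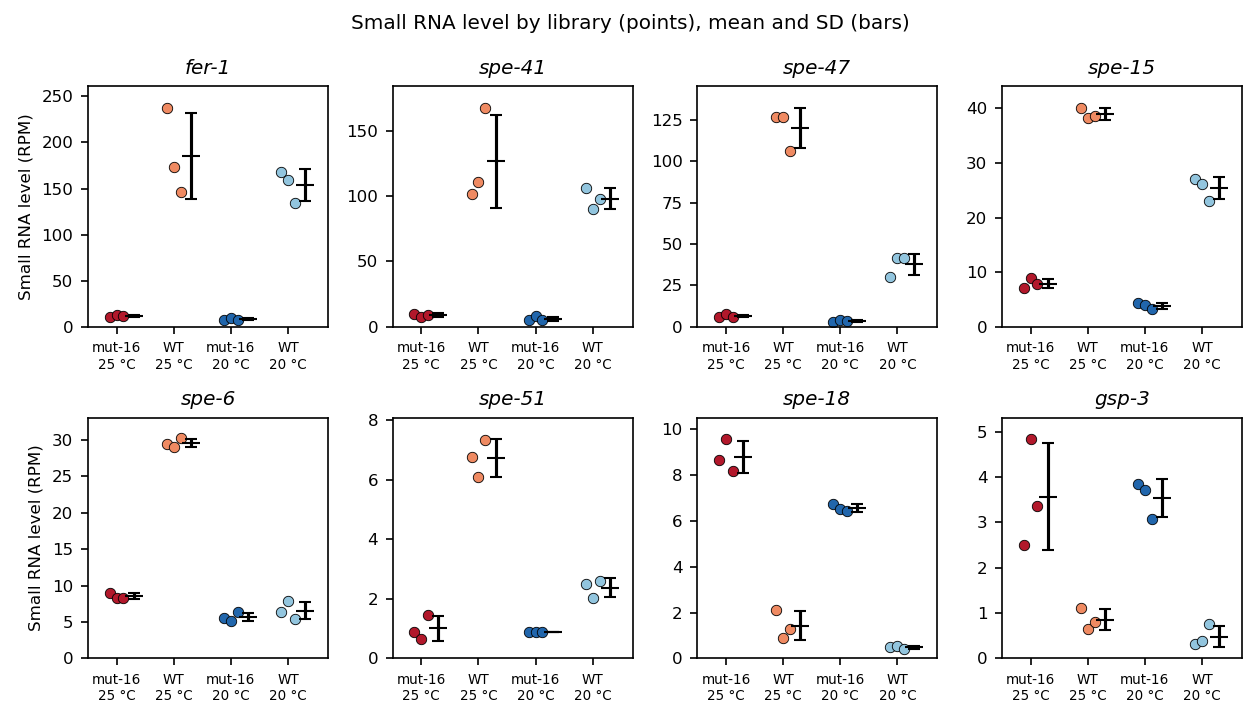
Small RNA level in RPM of *fer-1*, *spe-41*, *spe-47*, *spe-15*, *spe-6*, *spe-51*, *spe-18* and *gsp-3* in each library of the 4 groups, as points, with the mean and SD of each group as bars (n = 3). *fer-1* averages 11.8 RPM in *mut-16* at 25°C against 186 RPM in wild-type at 25°C, *spe-18* averages 8.80 RPM in *mut-16* against 1.43 RPM in wild-type at 25°C, and on *spe-6* wild-type at 25°C (29.6 RPM) stands above the other 3 groups.

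Set side by side, mRNA and small RNA moved together on some genes and apart on others. On *fer-1* and *spe-41* the mRNA was higher in *mut-16* at both temperatures while small RNAs were lower, whereas on *gsp-3*, *gsp-4*, *spe-18*, *spe-46* and *spe-12* both were higher. Over the 24 genes tested in both assays, the log2 fold changes of mRNA and small RNA had a Pearson r of 0.44 (Spearman rho 0.46) for mutants against wild-type at 20°C, 0.40 (0.56) at 25°C, 0.26 (0.27) for heat in *mut-16* and 0.17 (0.21) for heat in wild-type. These are descriptions across genes, which share libraries within an assay and are not independent. On *spe-11* and *spe-8*, which had large mRNA differences at 25°C (2.57 and 2.97), the small RNA differences at that temperature did not pass the test.

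Several of the genes share exon sequence with others in the annotation, which makes their values uncertain. On the same strand, exons overlap between *spe-27* and C06E7.88, *spe-36* and F40F11.3, and *spe-38* and *impt-1*. On the opposite strand they overlap between *spe-29* and *gon-1*, *spe-36* and F12F6.1, *spe-49* and *srn-1*, *spe-5* and *ift-20*, and *spe-9* and C17D12.5, and whether the counting used strand is not given in the sources used here. Noncoding RNA genes on the opposite strand overlap *fer-1* (F43G9.15 and F43G9.18) and *spe-47* (Y23H5A.9), and a snoRNA gene overlaps *spe-12*. A piRNA gene overlaps *spe-26* on the opposite strand and another overlaps *spe-27* on the same strand. Their part in the small RNA counts was not tested. By position, 15 of the 32 genes (46.9%) lie on chromosome I, against 14.4% of protein-coding genes, and none lies on X, which holds 13.6% of protein-coding genes.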

How the data were processed

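Poly(A)-selected mRNA (directional libraries) and size-selected small RNA were sequenced from whole adults, in 3 libraries for each of 4 groups and 12 per assay. The authors removed adapters with cutadapt and assigned reads to WS258 transcripts with Salmon (HISAT2 was used on the genome). The deposited values are estimated counts (expected counts) per gene that were not normalized. Versions and strand settings are not given in the sources used here. The chromatin samples of the series were not analysed here. Each file held 46970 lines for 45904 gene names, and lines of the 1060 names with more than 1 line were added up. Samples were grouped by the genotype and temperature in their titles.

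Counts were rounded, filtered with filterByExpr, scaled by TMM and fitted with edgeR 4.0.16 (R 4.3.3, limma 3.58.1) by the quasi-likelihood test with Benjamini-Hochberg adjustment, all 12 libraries of an assay in 1 fit, for 5 contrasts. A standard error is the log2 fold change divided by the normal deviate of its p. RPM are counts scaled to the library total (15432009 to 34195602 for mRNA, 4760502 to 19060841 for small RNA), so 1 count is worth more in the shallower libraries. Against 0 counts, folds are lower bounds from a floor of 3 counts over the group, and against 1 to 3 counts they are ratios with exact 95% counting intervals. The bounds take the counts of the higher group as exact and so leave out its counting error. Overlaps, identities and upstream windows were computed from WBcel235 with Python 3.11.15 (scipy 1.17.1, numpy 2.4.6 and pandas 2.3.3). The fit was tested on simulated data.

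The members and gene lists were chosen with earlier results of these data known. Values per library are given for 10 fixed genes (*gsp-3*, *gsp-4*, *fer-1*, *spe-44*, *spe-11*, *spe-9*, *spe-6*, *spe-8*, *spe-4* and *spe-10*), for the 5 called members with the largest fold in each contrast and a higher group that averaged 1 RPM or more, and for members called against the direction of most. Single values of 2 of the 32 genes are not reported here, and both stay in the counts, medians and sums. Alternatives were DESeq2 1.42.0, total counts as the scaling, no filter, a minimum of 10 counts per library, the replicate number as a block, only the groups compared, the RE mark of the titles as a covariate, an adjusted p of 0.01, a log2 fold change of 1 or more in size, and leaving out each library. Summed levels without *spe-5*, *spe-15*, *spe-39*, *spe-44* and *spe-48*, the 5 members that made up most of the summed mRNA level, were added after seeing the data. Same-numbered libraries showed no consistent pairing, so the fit has no block. Between 2 groups, their deviations correlated at most at a mean of 0.109, in mRNA of *mut-16* at 25°C and 20°C (0.019 to 0.189). That mean lay above the limit of 0.1 set for pairing, and its lowest pair lay under it. Over all groups and both assays, single pairs ranged from -0.133 to 0.189.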

Additional observations from a re-analysis of the deposited data

Results flagged for a closer look

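Responses to heat that differed between the genotypes, by the interaction term of edgeR's quasi-likelihood fit at a Benjamini-Hochberg adjusted p under 0.05, mark 15 results for a closer look, each given as the log2 fold change of heat in *mut-16* minus that in wild-type. In mRNA-seq these were *gsp-4* (-2.55), *spe-11* (-2.02), *gsp-3* (-1.89), *spe-18* (-1.21), *spe-41* (-1.18), *spe-6* (-0.92), *spe-5* (-0.78), *spe-15* (-0.68), *spe-44* (-0.58), *spe-39* (-0.54) and *spe-10* (-3.89), the last fitted against a group with no counts and so no measure of size. In small RNA-seq they were *spe-43* (-2.25), *spe-6* (-1.62), *spe-51* (-1.37) and *spe-47* (-0.75). In 13 of the 15 the change with heat was smaller in *mut-16*, while the mRNAs of *spe-39* and *spe-44* fell with heat in *mut-16* and did not pass the test in wild-type. In mRNA-seq 7 of 11, and in small RNA-seq 2 of 4 (*spe-43* and *spe-6*), held without each single library in turn. No group of the study is large enough for a search for single outlying libraries, since each holds 3.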

How the results depend on the processing

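Counts of called genes depended mostly on the filter, which sets how many members are tested, and on the scaling. For causes other than the number of genes tested, the cause was not tested. In mRNA-seq, a minimum of 10 counts per library left 9 members in the test. Counts of higher genes, with the share of all genes tested under the same setting in brackets, were then 4 for *mut-16* at 20°C (16.6%), 3 for *mut-16* at 25°C (38.3%), 4 for heat in *mut-16* (38%), 5 for heat in wild-type (17.1%) and 1 for the difference between the heat responses (20.4%), and counts of lower genes were 2 for *mut-16* at 25°C (26.4%) and 4 for the difference (9.58%). With total counts, lower genes numbered 2 for *mut-16* at 25°C, 0 for heat in *mut-16* and 6 for the difference, with 1 higher, and *spe-48* turned to 0.072 for heat in *mut-16*. With a log2 fold change of 1 or more in size they numbered 0 (1.65%), 0 (2.13%) and 6 (3.89%), with 11 higher for heat in *mut-16* (20.9%), and with an adjusted p under 0.01, 7 were lower for the difference (9.88%). In small RNA-seq, a minimum of 10 counts per library gave 4 higher genes for *mut-16* at 20°C (38.2%), 4 at 25°C (39.8%), 9 for heat in *mut-16* (23.3%), 7 for heat in wild-type (24.6%) and 2 for the difference (14.6%), with 0 lower for heat in *mut-16* (17.5%) and 1 lower for the difference (12.8%). DESeq2 gave 8 higher (9.71%) and 0 lower (13.4%) for heat in *mut-16* and 2 lower for the difference (10.6%). A fold of at least 1 gave 9 higher at 25°C (9.21%), 3 higher (3.63%) and 0 lower (5.30%) for heat in *mut-16* and 8 (10.3%) and 0 (6.71%) for heat in wild-type. An adjusted p under 0.01 gave 3 (4.56%) and 0 (11.6%) for heat in *mut-16*, 8 (13.4%) and 0 (11.4%) for heat in wild-type, and 2 lower for the difference (6.18%). Fitting only the groups compared gave 11 higher for heat in *mut-16* (21.2%) and 8 for heat in wild-type (18.1%). Without a filter 0 were lower for heat in *mut-16* (9.61%) or in wild-type (8.17%), and with total counts 2 were lower for heat in wild-type (22.9%) and 1 higher for the difference (6.48%).

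Leaving out each library in turn gave, in mRNA-seq, 16 to 18 higher and 0 lower for *mut-16* at 20°C, 16 to 19 and 4 at 25°C, 12 to 16 and 0 for heat in wild-type, 15 to 19 and 3 to 4 for heat in *mut-16*, and 0 higher and 8 to 12 lower for the difference. In small RNA-seq it gave 12 to 14 and 5 to 6, 12 to 17 and 8 to 9, 9 to 14 and 0 to 1, 4 to 5 and 0 to 1, and 0 to 2 and 2 to 3 in the same order. The replicate numbers were not used to pair the samples in the main fit. With them as a replicate block, small RNA-seq gave 12 higher (18.7%) and 0 lower (15.8%) for heat in wild-type, and mRNA-seq gave 10 lower for the difference (21.6%), and no other count moved by more than 1.5 times. The RE mark of the mRNA titles as a covariate moved no count by more than 1.5 times. The call of *gsp-3* for heat in *mut-16* was lost with this covariate, with DESeq2 and with only the groups compared. Over single genes and alternatives, 1211 values kept direction and side of the threshold, 154 lost the call and 1 turned. Genes with few counts in wild-type at 20°C limit the precision of folds against that group.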
